A study of Mus musculus with 4 samples.

Results

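Glycosyltransferases of the Golgi build and cap the sugar chains of cell-surface glycoproteins and glycolipids. The genes described here mostly encode mouse sialyl-, fucosyl-, N-acetylglucosaminyl- and galactosyltransferases, together with the N-acetylgalactosaminyltransferases that start mucin-type O-glycans. They were taken by gene symbol, as every gene named St3gal, St6gal, St6galnac, St8sia, Mgat, B4galt, B3gnt, Galnt, Gcnt or Fut with a family number, plus C1galt1 and its chaperone gene C1galt1c1. The rule found 78 gene IDs with 77 symbols among the 50600 genes of the count tables, all annotated as protein-coding. Both St6galnac2 IDs were kept, and the one with fewer counts is named here by its ID, ENSMUSG00000110170. The genes are scattered, with at most 9 on any chromosome (chromosomes 2 and 11). The 3 most abundant are St3gal1 (chromosome 15, 67102875 to 67113992), Galnt6 (chromosome 15, 100691813 to 100729376) and Mgat2 (chromosome 12, 69184157 to 69186770), in mm10 coordinates of the files.

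N-glycans are trimmed to a mannose core, branched with N-acetylglucosamine, extended with galactose and capped with sialic acid or fucose. O-glycans start from N-acetylgalactosamine on serine or threonine and are then either capped early or branched. On T cells the balance of these steps is known to set galectin binding, selectin ligands for homing and the sialylation of CD43 and CD45.

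Libraries came from primary T cells of the inbred mouse strain C57BL/6NJ. There is a single group with 4 biological replicates. The labels name no treatment, genotype change or control group, leave sex unrecorded and give age as unknown. All 4 carry the same donor identifier, so nothing in the labels shows that they came from separate animals, and the spread between them may be partly technical. The header lines of the count tables, though not the labels, call the cells activated Th0 cells at 48 hours, that is, helper T cells stimulated without polarising cytokines.

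Counts assigned to genes ranged from 45110199 to 127755788 per library, with replicate 3 the deepest, and every pair of libraries differed beyond counting noise. All 12 of 12 T cell markers exceeded 1 CPM (counts scaled to library size), with a summed level of 4564 to 4637 CPM and Cd4 at 930.6 CPM. The summed level was 8.86 to 10.7 CPM for the pair of CD8 markers, 3.30 to 4.97 CPM for 6 B cell markers, 16.9 to 20.6 CPM for the pair of plasma cell markers, nearly all of it Sdc1, 4.50 to 5.89 CPM for 6 macrophage and monocyte markers and at most 0.111 CPM for 4 granulocyte markers, of which 3 had no count. Members of a list differed by the level test given below. Cd8b1 had 9.62 CPM and lay above 1 CPM, and Cd8a had 0.279 CPM and lay below it. Ebf1 (1.53 CPM) was the only B cell marker above it, with 4 of 6 below. Cd68 (2.69 CPM) and Adgre1 (2.60 CPM) lay above it, while 2 macrophage and monocyte markers lay below it and 2 had no count. Of the 3 endothelial markers Pecam1, which T cells also express, stood at 26.9 CPM and 1 had no count. Further lists covered gamma-delta T cells, NK cells, dendritic cells, mast cells and basophils, platelets, erythroid cells, stroma and epithelium. In these, only the NK cell marker Eomes (2.34 CPM) and the epithelial marker Epcam (1.47 CPM) lay above 1 CPM. The gamma-delta marker Sox13 (1.51 CPM) and the platelet marker Itga2b (1.22 CPM) could not be separated from it. In bulk RNA, fewer cells with a transcript and less transcript per cell cannot be told apart.

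The question the single group allows is which of these enzymes the cells transcribed, in what proportions, and how far the replicates differed. Of the 78 genes, 43 lay above 1 CPM, 15 lay below it, 5 could not be separated from it and 15 had no count in any library. The test was limma on log2(CPM + 0.1), one-sided in each direction, with Benjamini-Hochberg adjustment over all 23365 genes with a count. Among the 63 glycosyltransferase genes with a count, 68.3% were above and 23.8% below, where the whole table had 47.4% above and 48.3% below. Protein-coding genes with a count, the nearer comparison, had 69.3% above and 26.8% below, so the enzymes' share above the threshold was near that of protein-coding genes in general. A smaller share of these genes had no count, 19.2% against 30.7% of the 21764 protein-coding genes of the files, a difference that was not tested.

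Levels between genes are given per exon length, as TPM, the CPM corrected for the exon lengths in the files. The enzymes summed to 1530, 1545, 1598 and 1544 TPM in replicates 1 to 4. The 25 genes above 10 TPM made up 93.5% of that sum and the top 3, St3gal1, Galnt6 and Mgat2, made up 36.2%. These genes were picked by the same values, and no such share was computed for other genes. The median over the 43 genes above 1 CPM was 22.6 TPM, below the 34.4 TPM of all protein-coding genes above that threshold. St3gal1, the most abundant, was matched or exceeded by 726 protein-coding genes in all, itself included.

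**Figure D1:**
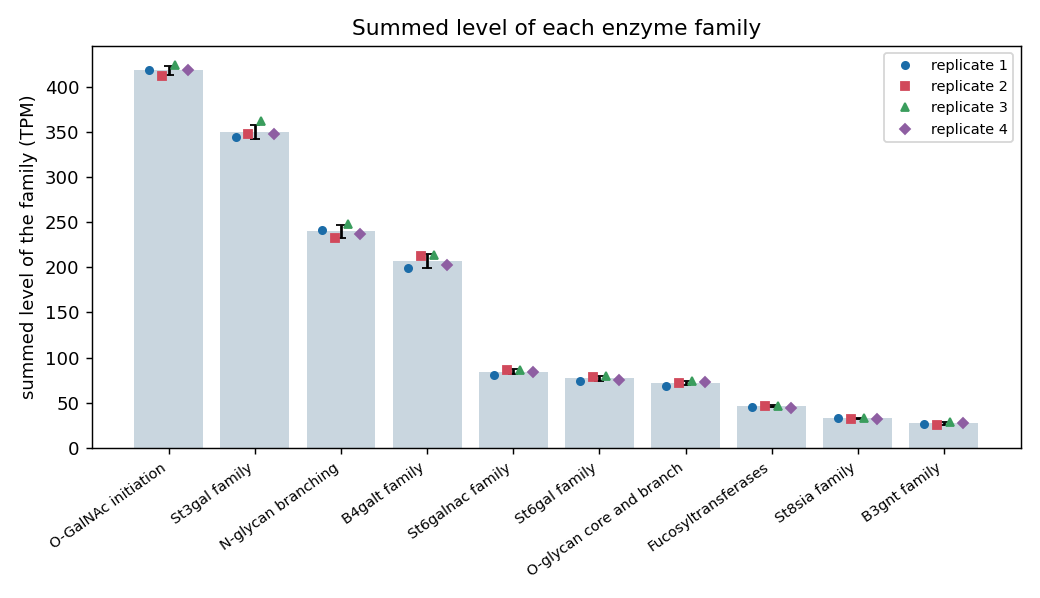
Summed TPM of each of 10 enzyme families; bars are means of 4 libraries, error bars are SD and points are single libraries, over all family members including those without a count. The O-GalNAc family (418 TPM) and the St3gal family (350 TPM) stood highest and the B3gnt family (27.1 TPM) lowest. Per unshared exon base, though, the B3gnt family reached 67.4 TPM and was not the lowest. Families differ in size, from 2 members (St6gal) to 17 (O-GalNAc), and the sums are not divided by it.

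The branching enzymes of N-glycans, the Mgat genes, summed to 239.9 ± 6.897 TPM (SD, n = 4). Mgat1, which adds the first N-acetylglucosamine and thereby opens the path to hybrid and complex N-glycans, had 59.2, 56.6, 61.2 and 58.95 TPM in replicates 1 to 4. Mgat2, which adds the next branch, had 132, 124, 129.9 and 125 TPM. Mgat2 was the higher of this pair in every library, at a log2 ratio of Mgat1 over Mgat2 of -1.11 ± 0.04 on TPM + 0.1. The ratio was -0.53 with the longest coding transcripts as lengths.

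Mgat5, which makes the beta1,6 branch that carries the preferred galectin ligands and whose loss is known to lower the activation threshold of mouse T cells, had 34.4, 35.4, 39.6 and 37.2 TPM. The enzyme that competes with further branching by adding a bisecting N-acetylglucosamine, Mgat3, had no count in any library. The paralog of Mgat5, Mgat5b, best known from the brain, had none either. A count of 0, taking 3 counts per library as the limit, allowed 0.0175 to 0.0488 TPM for Mgat3 and 0.0178 to 0.0495 TPM for Mgat5b. Mgat5 was therefore at least 726-fold higher than Mgat3 and at least 715-fold higher than Mgat5b in the library with the smallest ratio, a limit that covers counting error only.

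The promoters of 3 of these genes are shown because they pair the most abundant branching gene and the paralogs Mgat5 and Mgat5b, one expressed and one without a count, each with a single annotated start. The windows are RefSeq sequences on GRCm38.p6, 250 bases before to 50 after the start of each gene, all on the plus strand, 5′ to 3′, with every CG dinucleotide in capitals.
Mgat2, chr12:69183908-69184207: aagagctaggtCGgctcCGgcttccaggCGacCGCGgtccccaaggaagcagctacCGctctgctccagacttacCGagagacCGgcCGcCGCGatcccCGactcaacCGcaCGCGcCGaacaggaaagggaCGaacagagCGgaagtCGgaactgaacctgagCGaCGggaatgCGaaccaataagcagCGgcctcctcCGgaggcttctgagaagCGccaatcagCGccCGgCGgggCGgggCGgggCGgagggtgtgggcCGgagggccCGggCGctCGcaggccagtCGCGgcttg
Mgat5, chr1:127204736-127205035: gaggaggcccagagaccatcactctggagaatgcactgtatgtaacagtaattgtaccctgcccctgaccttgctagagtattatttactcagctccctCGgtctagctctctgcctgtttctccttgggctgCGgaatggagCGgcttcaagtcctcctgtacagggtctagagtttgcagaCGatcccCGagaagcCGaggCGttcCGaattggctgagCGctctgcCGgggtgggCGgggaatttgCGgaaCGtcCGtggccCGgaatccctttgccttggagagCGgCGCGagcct
Mgat5b, chr11:116918613-116918912: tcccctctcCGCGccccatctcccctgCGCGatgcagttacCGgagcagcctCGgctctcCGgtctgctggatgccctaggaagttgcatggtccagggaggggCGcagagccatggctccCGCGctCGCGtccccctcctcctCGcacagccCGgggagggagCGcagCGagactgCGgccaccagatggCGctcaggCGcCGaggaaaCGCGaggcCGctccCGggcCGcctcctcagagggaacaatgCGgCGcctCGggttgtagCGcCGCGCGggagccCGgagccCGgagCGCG
Mgat2 held 37 CG dinucleotides in these 300 bases, Mgat5 held 18 and Mgat5b held 36. Mgat5b, without a count, thus had nearly as many as the most abundant branching gene and more than its expressed paralog. It is an extreme case. Among all enzyme genes without a count that had such a window, Mgat5b held the most. The others ranged from 5 (Galnt5) to 28 (Galnt13).

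Mgat4a and Mgat4b, which add the beta1,4 branch, stood close together. Mgat4a had 6.62, 7.44, 7.58 and 7.55 TPM and Mgat4b had 8.79, 8.93, 10.3 and 8.66 TPM. Mgat4b was the higher in all 4 libraries at the exon lengths of the files, with a log2 ratio of Mgat4a over Mgat4b of -0.32 ± 0.11. That order rests on length, because the ratio was 1.90 in CPM and 0.34 when each gene's longest coding transcript was used, both in favour of Mgat4a. Mgat4c had 2 counts over all libraries, and Mgat4d had none.

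**Figure D2:**
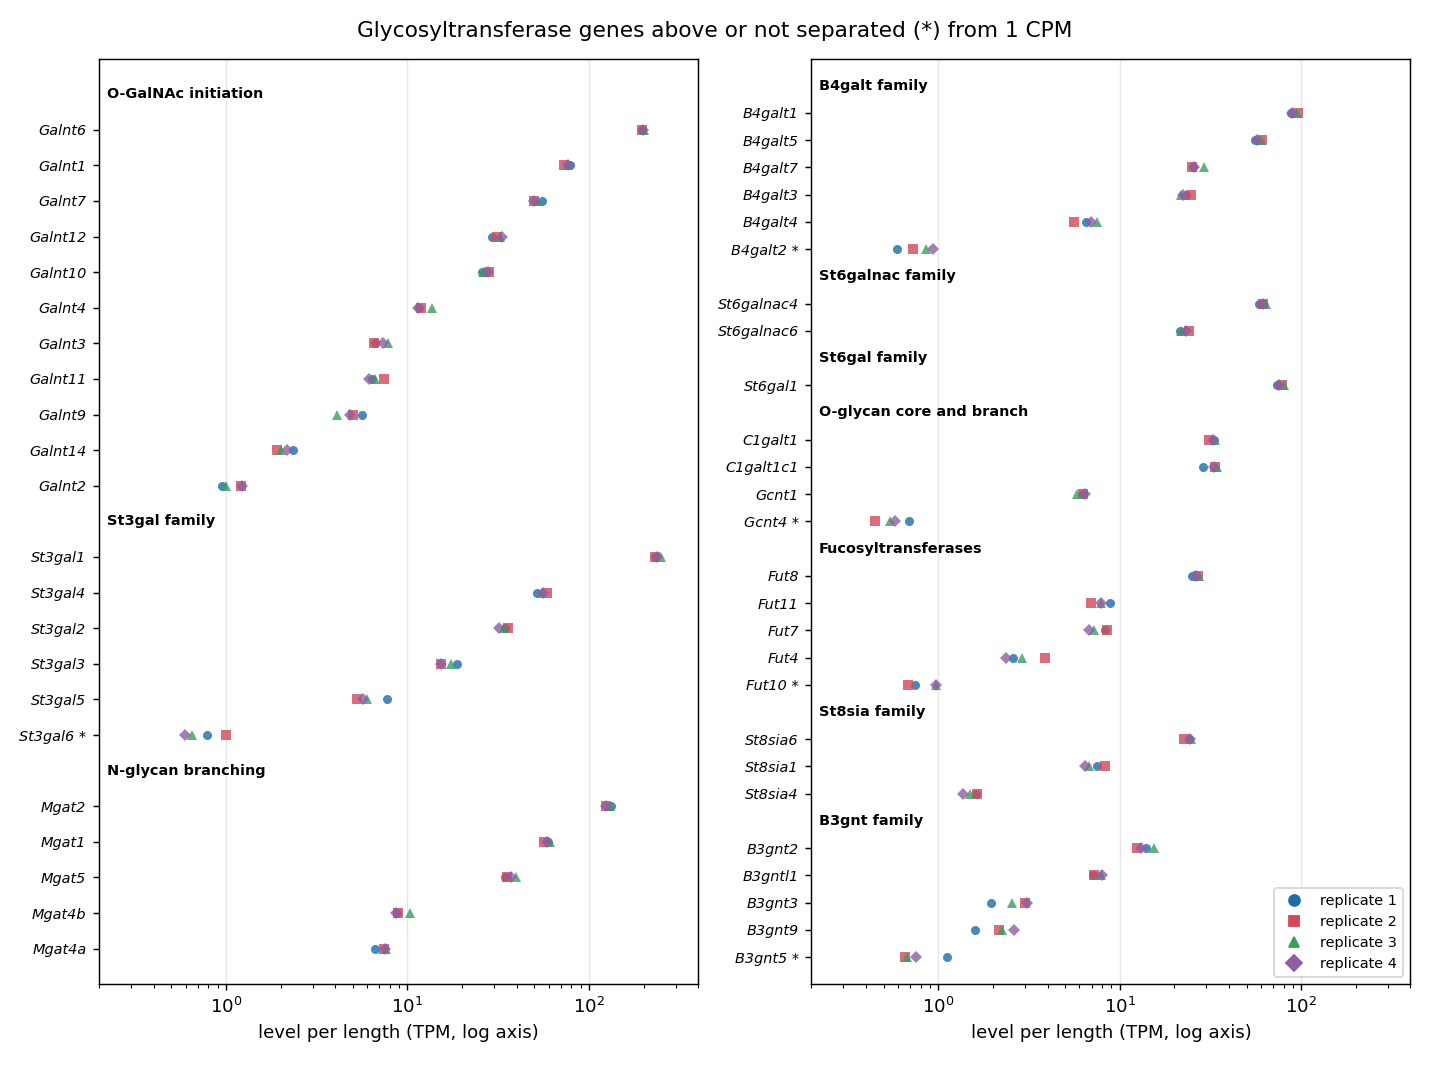
TPM (log axis) of the 48 glycosyltransferase genes that lay above 1 CPM or could not be separated from it (marked *), by family; each symbol is 1 library. St3gal1 and Galnt6 lie between 196 and 249 TPM in every library, and the symbols of a gene spread more widely toward the low end of the scale.

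Extension of the branches begins with galactose. The B4galt genes summed to 207 ± 7.34 TPM. B4galt1, the main galactosyltransferase of N-glycan branches, had 88.2, 96.4, 94.3 and 89.3 TPM and made up 44.5% ± 0.543 of the family. B4galt5, one of the lactosylceramide synthases that open the path to gangliosides, had 55.5, 60.7, 60.01 and 57.2 TPM. Its alternative for that step, B4galt6, had 21 counts in all and was at 0 in replicates 1 and 2, so B4galt5 carried nearly all of the pair.

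B4galt3, another galactosyltransferase of N-glycans, had 23.04, 24.5, 21.6 and 22.3 TPM. B4galt1 exceeded it in every library by a log2 ratio of 2.00 ± 0.08, and the excess was 0.71 with the longest coding transcripts as lengths. B4galt7, which adds the first galactose to the xylose of the glycosaminoglycan linker, averaged 26.3 ± 1.97 TPM, and B4galt4 averaged 6.64 ± 0.814 TPM. B4galt2 averaged 1.14 ± 0.214 CPM and could not be separated from 1 CPM. Of its exon bases 28.2% are shared with Ccdc24 on the same strand, and read pairs that overlap several genes went to neither.

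The B3gnt genes, grouped by symbol, summed to 27.1 ± 1.58 TPM, the lowest family sum at the exon lengths of the files. Several of them add N-acetylglucosamine to galactose and so lengthen poly-N-acetyllactosamine chains or extend core 1. That role does not hold for B3gntl1, 27.9% of the sum, or for B3gnt6. B3gnt2, the main poly-N-acetyllactosamine synthase, led with 13.9, 12.4, 15.4 and 13.03 TPM. This value is a low estimate of unknown size, since 74.7% of the exon bases of B3gnt2 are shared with Gm28048 and ENSMUSG00000101716 on the same strand, where pairs were not assigned. Per base that no other same-strand gene covers, B3gnt2 reached 54.01 ± 5.11 TPM. With unshared bases as lengths the family sum was 67.4 ± 5.06 TPM, above those of the fucosyltransferases (45.9 TPM) and the St8sia genes (32.7 TPM), so the rank of the B3gnt family rests on the length used. Gm28048 itself had 0.00468 CPM.

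B3gntl1 followed with 7.56 ± 0.473 TPM, B3gnt3, a core 1 extension enzyme, with 2.65 ± 0.525 TPM and B3gnt9 with 2.16 ± 0.427 TPM. The libraries of B3gnt3 and B3gnt9 overlapped, although B3gnt3 was the higher in 4 of 4. B3gnt5, which makes the precursor of lacto-series glycolipids, averaged 1.21 ± 0.334 CPM and could not be separated from 1 CPM. B3gnt7, B3gnt4, B3gnt6, the core 3 synthase, and B3gnt8 all lay below 1 CPM with 26, 5, 11 and 20 counts in all. B3gnt2 exceeded B3gnt8, which acts on the branches of N-glycans, by a log2 ratio of 6.68 ± 0.33. The size of that ratio is set by the pseudocount and the overlap, since it was 3.82 with a pseudocount of 1, 8.52 with 0.01 and 8.65 per unshared base.

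The Galnt genes start mucin-type O-glycans by attaching N-acetylgalactosamine to the protein. With 418 ± 5.14 TPM they had the highest sum of any family, and also the most members. Their median was 4.88 TPM, against 25.4 TPM over the 6 St3gal genes. Of the 17 members 11 lay above 1 CPM, 2 below it and 4 had no count. Of all protein-coding genes of the files, those without a count included, 48.0% lay above. Galnt6 alone had 196, 196, 202 and 199 TPM and made up 47.3% ± 0.316 of the family. Its libraries lay within a narrow band, with a coefficient of variation of 0.757% in CPM.

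Galnt1, one of the broadly expressed initiators in mouse tissues, had 78.4, 72.8, 76.3 and 76.2 TPM. Galnt2, the other initiator usually regarded as broadly expressed, had only 0.951, 1.204, 1.004 and 1.23 TPM. The log2 ratio of Galnt1 over Galnt2 was 6.00 ± 0.20. Of the 4282 exon bases of Galnt2, all but 428 are shared with Gm20388 on the same strand, where pairs were assigned to neither gene, and Gm20388 had no count. Per unshared base Galnt2 reached 10.98 ± 1.403 TPM, and the log2 ratio to Galnt1 became 2.79, so the order held and its size did not. Galnt2 was also the gene nearest above the threshold, at 1.37 ± 0.178 CPM with an adjusted p of 0.0433 by limma. That call was lost on the TPM scale and without replicate 2, 3 or 4.

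Galnt3, known for glycosylating the hormone Fgf23, had 6.59, 6.54, 7.82 and 7.34 TPM. Galnt7, which prefers peptides that already carry N-acetylgalactosamine, had 55.4, 49.997, 52.6 and 49.8 TPM. Galnt3 was the lower in every library, with a log2 ratio of Galnt3 over Galnt7 of -2.86 ± 0.15. Galnt12 averaged 31.5 ± 1.79 TPM, Galnt10 26.9 ± 1.28 TPM and Galnt4 12.2 ± 1.02 TPM. Galnt11, Galnt9 and Galnt14 averaged 6.64 TPM, 4.88 TPM and 2.11 TPM. Galnt5, Galnt13, Galnt15 and Galnt17 had no count, and Galnt16 and Galnt18 had 7 and 3 counts in all.

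The core 1 enzyme and its chaperone stood at close levels. C1galt1, the core 1 galactosyltransferase, had 32.9, 31.05, 33.6 and 32.5 TPM. C1galt1c1, which encodes the chaperone Cosmc that C1galt1 protein needs to fold, had 28.6, 33.6, 34.5 and 33.1 TPM. Their log2 ratio was 0.01 ± 0.14, the ranges overlapped, and C1galt1 was the higher in 1 of 4 libraries. In CPM, which does not allow for the shorter transcript of C1galt1c1, the ratio was 2.07.

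After core 1, an O-glycan can be capped with sialic acid by St3gal1 or branched to core 2 by Gcnt1. St3gal1 had 230.2, 232, 249 and 238 TPM, the highest level of all 78 genes. Gcnt1 had 6.31, 6.28, 5.82 and 6.42 TPM. The log2 ratio of St3gal1 over Gcnt1 was 5.17, 5.18, 5.39 and 5.19 in replicates 1 to 4, so the capping gene was the higher in every library by a similar factor. With the longest coding transcripts as lengths the mean ratio was 4.76. The ratio is one of transcripts and does not measure the enzymes' activity.

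Gcnt1 was the main core 2 gene. Gcnt4, another core 2 enzyme, averaged 0.839 ± 0.155 CPM and could not be separated from 1 CPM, while Gcnt3, which makes core 2 and core 4, had 23 counts. Gcnt2, which branches poly-N-acetyllactosamine to the I antigen, had none, nor did Gcnt7. B3gnt2, which makes the linear chain, was at least 384-fold higher than Gcnt2.

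**Figure D3:**
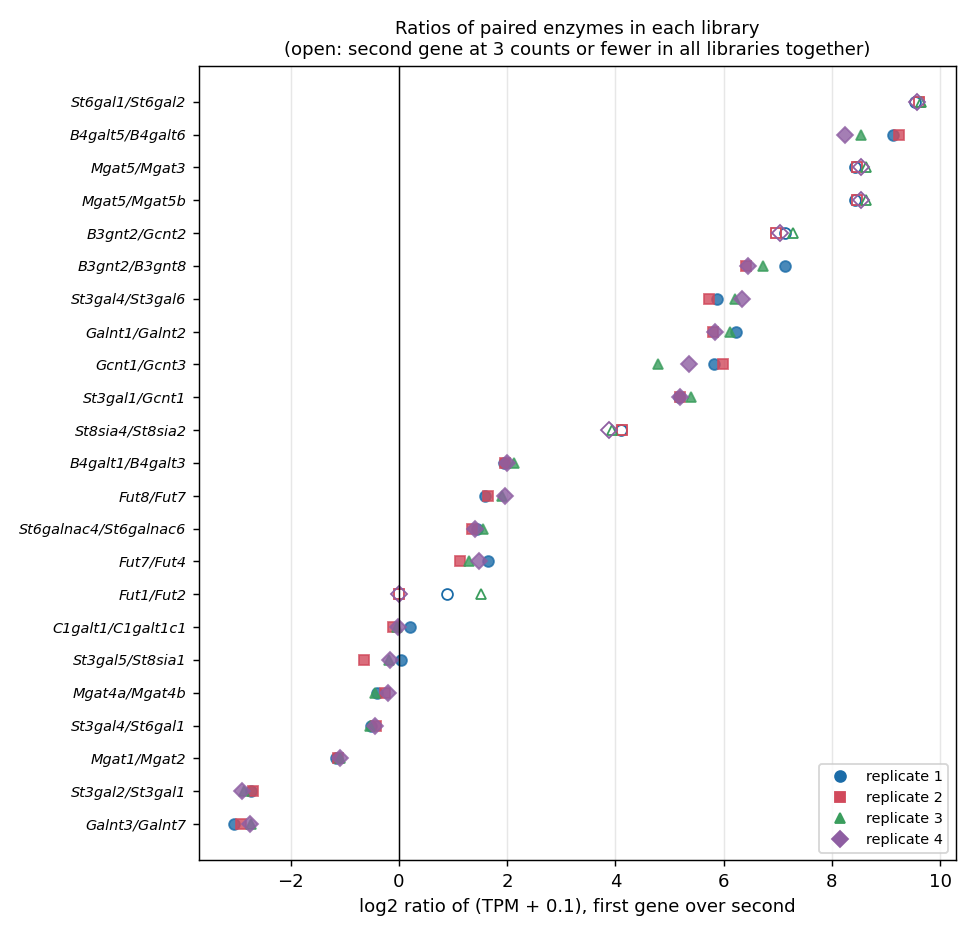
Log2 ratio of (TPM + 0.1) for 23 gene pairs, each symbol 1 library. The genes of a pair share a step, compete for an acceptor, act in consecutive steps or belong to 1 family, and C1galt1c1 encodes a chaperone. Open symbols mark pairs whose second gene had at most 3 counts over all libraries. There the ratio depends on the pseudocount, as it also does for B4galt6, B3gnt8 and Gcnt3 with 20 to 23 counts. The libraries of a pair fall on the same side of 0 except for C1galt1/C1galt1c1, St3gal5/St8sia1 and Fut1/Fut2.

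Across the 23 pairs, the first gene was the higher in every library for 15, the second for 5, and 3 pairs had no common order. These orders are descriptions, because an exact sign-flip test of 4 libraries cannot reach a p below 0.05.

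The St3gal genes, which cap galactose with alpha2,3-linked sialic acid, summed to 350.3 ± 7.997 TPM, and St3gal1 made up 67.7% ± 1.06 of that. St3gal2, which uses the same core 1 acceptor and ganglioside acceptors, had 34.6, 35.9, 34.04 and 31.99 TPM. The log2 ratio of St3gal2 over St3gal1 was -2.79 ± 0.10, and -2.395 with the longest coding transcripts as lengths. St3gal1 was thus the higher in all 4 libraries.

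St3gal4 and St3gal6 cap type 2 chains on the way to selectin ligands. St3gal4 had 51.9, 58.4, 55.3 and 56.1 TPM. St3gal6 had 0.788, 0.998, 0.653 and 0.591 TPM, at 1.34 ± 0.324 CPM could not be separated from 1 CPM, and lay below St3gal4 by a log2 ratio of 6.04 ± 0.28 for St3gal4 over St3gal6 (5.01 with a pseudocount of 1). St3gal3 averaged 16.7 ± 1.73 TPM. St3gal5, which makes the ganglioside GM3, had 7.71, 5.27, 5.95 and 5.66 TPM and was highest in replicate 1.

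Alpha2,6-sialylation of N-glycans rests on St6gal1 in most mouse tissues, and its product is the ligand of the B cell lectin CD22. St6gal1 had 73.9, 78.03, 80.1 and 75.7 TPM. Its paralog St6gal2 had no count, which allowed 0.0111 to 0.0309 TPM, so St6gal1 was at least 2529-fold higher. Both St6gal1 and St3gal4 act on galactose at the ends of N-glycans. St3gal4 was the lower in every library, with a log2 ratio of St3gal4 over St6gal1 of -0.47 ± 0.06, which was -0.12 with the longest coding transcripts as lengths.

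Among the St6galnac genes, which put sialic acid on N-acetylgalactosamine, only St6galnac4 and St6galnac6 lay above 1 CPM. St6galnac4, which makes disialylated core 1, had 58.5, 61.7, 64.2 and 61.2 TPM. St6galnac6, known from alpha-series gangliosides, had 21.5, 24.1, 21.8 and 23.1 TPM, and the log2 ratio of St6galnac4 over St6galnac6 was 1.44 ± 0.09. The 2 genes are neighbours on the plus strand of chromosome 2 (mm10, 32587095 to 32599698 and 32599709 to 32620806), with 10 bases between their annotated ends. Both were thus expressed at the same locus, whereas St6galnac2 and St6galnac1, which lie 70156 bases apart on chromosome 11, had 53 counts in all and none.

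St6galnac3 was the gene nearest below the threshold, at 0.461 ± 0.303 CPM with an adjusted p of 0.005896 by limma. It had 0.826, 0.1995, 0.595 and 0.225 CPM, higher in replicates 1 and 3 than in replicates 2 and 4. The second St6galnac2 ID had 2 counts, and St6galnac5 had none.

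The St8sia genes add sialic acid to sialic acid. St8sia6, which makes disialic acid on O-glycans, led with 24.2, 22.6, 24.6 and 24.4 TPM and made up 73.2% ± 2.76 of the family's 32.7 ± 0.468 TPM. St8sia1, which converts GM3 to GD3, had 7.502, 8.27, 6.804 and 6.398 TPM. St3gal5 over St8sia1 had a log2 ratio of -0.24 ± 0.29, with St3gal5 the higher in replicate 1 only, so the order of these ganglioside enzymes was not stable over the libraries.

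St8sia4, one of the polysialic acid synthases, was lower at 1.61, 1.63, 1.4998 and 1.37 TPM. The other polysialic acid synthase, St8sia2, had 1 count in all 4 libraries together. The pooled ratio of St8sia4 over St8sia2 per length was 672, with an exact Clopper-Pearson 95% interval of 121 to 26567 that covers counting error only. It was 1343 with the longest coding transcripts as lengths. St8sia5 had 1 count and St8sia3 none.

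The fucosyltransferase genes summed to 45.9 ± 1.15 TPM. Fut8, which adds the core fucose of N-glycans, had 25.2, 26.9, 27.3 and 26.4 TPM and made up 57.6% ± 1.96 of the family. Fut7, which makes sialyl Lewis x and with it the selectin ligands of T cells, had 8.29, 8.53, 7.25 and 6.73 TPM. Fut4, the other leukocyte enzyme of Lewis x structures, had 2.57, 3.87, 2.897 and 2.35 TPM.

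Fut7 exceeded Fut4 in every library at a log2 ratio of 1.39 ± 0.23, and Fut8 exceeded Fut7 at 1.77 ± 0.18. With the longest coding transcripts as lengths, the log2 ratio of Fut8 over Fut7 was 2.82. Fut11 averaged 7.905 ± 0.794 TPM, and its libraries overlapped those of Fut7. Fut10 averaged 1.23 ± 0.219 CPM and could not be separated from 1 CPM. Fut1, which makes the H antigen, had 23 counts in replicates 1 and 3 together and none in the other libraries. Fut2, the other H enzyme 27531 bases away on chromosome 7, and Fut9 had no count. At these counts no fold between Fut1 and Fut2 can be given.

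Genes of sugar donors and carrier proteins, of other enzymes that act on glycans and of lectins were examined in 8 lists of 94 genes. Of these, 67 lay above 1 CPM, 2 could not be separated from it, 16 lay below it and 9 had no count. Of the 85 with a count 78.8% lay above, beside 69.3% of protein-coding genes with a count.

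In nucleotide sugar synthesis 16 of 17 genes lay above 1 CPM, with a median of 37.2 CPM over the list against 0.902 CPM over all genes tested and 18.1 CPM over protein-coding ones. Galk1, galactokinase, averaged 336 ± 25.97 TPM, Tsta3, which completes GDP-fucose synthesis, 144 ± 9.28 TPM, and Nans, the sialic acid 9-phosphate synthase, 115 ± 4.83 TPM. The exception was Nanp, the phosphatase that acts on the product of Nans, at 0.181 ± 0.0985 CPM and below the threshold. All 9 Golgi nucleotide sugar carriers lay above 1 CPM, with a median of 47.5 CPM. Slc35a4 averaged 194 ± 3.03 TPM, Slc35c1, the GDP-fucose carrier, 93.8 ± 3.42 TPM, and Slc35a1, the CMP-sialic acid carrier, 74.98 ± 5.64 TPM.

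All 10 genes of N-glycan trimming lay above 1 CPM, with a median of 108 CPM. The glucosidase genes Ganab, Mogs and Prkcsh averaged 377 ± 14.3 TPM, 374 ± 6.32 TPM and 269.7 ± 12.05 TPM. All 9 carrier glycoprotein genes lay above it too, with a median of 189 CPM. Spn, which encodes CD43, averaged 777 ± 30.3 TPM, Thy1 510.2 ± 38.7 TPM and Ptprc, which encodes CD45, 278 ± 9.66 TPM.

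Of 20 other glycosyltransferases, 12 lay above 1 CPM, 5 below and 3 had no count, with a median of 26.0 CPM. B4galnt1, which makes the gangliosides GM2 and GD2, averaged 549 ± 10.3 TPM and so lay above every one of the 78 enzymes. Ogt, which adds O-linked N-acetylglucosamine to nuclear and cytosolic proteins, averaged 106 ± 1.897 TPM, and Mfng, a Fringe enzyme acting on Notch receptors, 98.4 ± 4.23 TPM. Those below were B3galnt1, B3galt5, B3galt2, A4galt and B3galt1, with at most 42 counts each.

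Of 10 sulfotransferases 2 lay above 1 CPM. Chst2, which sulfates N-acetylglucosamine of selectin ligands, averaged 70.1 ± 1.74 TPM and Chst10 3.53 ± 0.119 TPM. Chst3 averaged 1.29 ± 0.204 CPM and could not be separated from 1 CPM, Gal3st1, Gal3st3 and Gal3st2 lay below it and the other 4 had no count. Of 6 sialidases and fucosidases, 4 lay above 1 CPM and Neu2 and Neu4 had no count. Neu1, the lysosomal sialidase, averaged 58.5 ± 1.15 TPM, Fuca1 46.6 ± 1.35 TPM and Neu3, the plasma membrane sialidase, 20.3 ± 1.15 TPM.

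Of 13 lectins that bind these glycans, 5 lay above 1 CPM, 7 below it and Lgals3 could not be separated from it, with a list median of 0.265 CPM. Lgals1 averaged 407 ± 68.6 TPM, Lgals9 143 ± 3.17 TPM and Lgals8 7.91 ± 0.541 TPM. Those below were Sele, Cd22, Selp, Siglecg, Siglech, Siglec1 and Cd33, of which the most abundant, Sele, averaged 0.265 ± 0.0793 CPM.

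The replicates were also compared gene by gene. Of the 49 enzymes that passed edgeR's filterByExpr, none was called more variable between libraries than genes of its abundance. The test was edgeR's goodness of fit with a trended dispersion and Benjamini-Hochberg adjustment, and it called 56 of 13279 genes in the whole table (0.422%). At an unadjusted p below 0.05 the test gave 1 gene, St6galnac3 (adjusted p = 0.340), and with 1 common dispersion in place of the trend, where 873 genes were called, it gave the same gene with an adjusted p of 0.000248. The coefficient of variation of the 25 enzymes above 10 TPM ranged from 0.757% to 10.5% with a median of 4.79%, against 4.54% for the 8635 genes above that level.

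**Figure D4:**
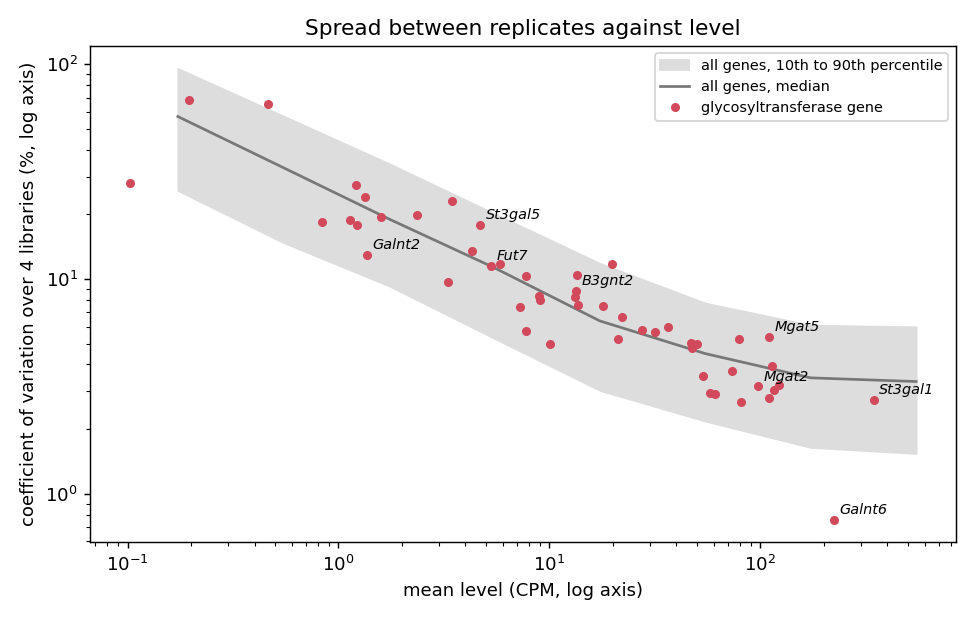
Coefficient of variation over 4 libraries against mean CPM (both log axes) for glycosyltransferase genes of at least 0.1 CPM (points), with the median and the 10th to 90th percentile of all genes in bins of level. Against the percentiles of its own bin, Galnt6 (0.757%) lies below the 10th, and Fut4 (23.1%) and St6galnac3 (65.7%) lie above the 90th. By definition 10% of all genes of a bin lie beyond each of these limits.

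At their annotated starts, 55 of the 77 symbols had promoter windows of 300 bases in the RefSeq table (78 windows in all). St3gal1, the most abundant enzyme gene, and Galnt1 were among those without a window. Of the 43 enzymes above 1 CPM, 34 had a window, and the medians and percentages below cover only these. For genes with several windows the largest CG count was taken. The median was 24.5 CG dinucleotides for the 34 enzymes above 1 CPM, 20 for the 21 others, 23 for 8412 protein-coding genes above 1 CPM and 5 for 8057 other protein-coding genes. The 21 others, which include genes that could not be separated from 1 CPM, thus had a higher median than the other protein-coding genes, a description with no test. The windows of Mgat2 and Mgat5b printed above, at 37 and 36 CG, lie on opposite sides of the expression range. Mgat5b held the most CG of the enzyme genes without a count, so it does not stand for them.

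**Figure D5:**
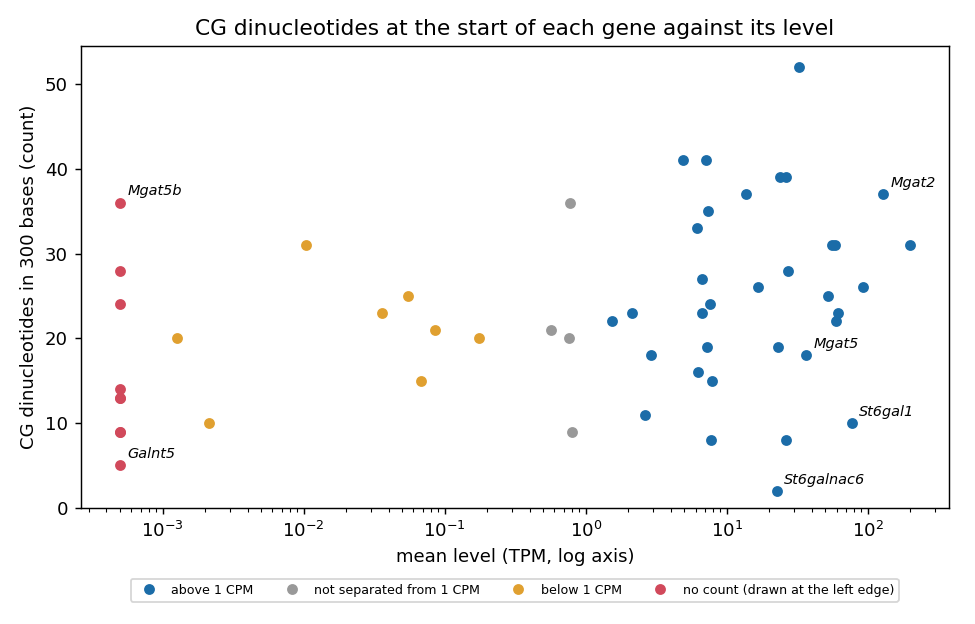
CG dinucleotides in the 300-base window at the start of 55 enzyme genes (the largest of several windows) against mean TPM on a log axis, coloured by call against 1 CPM; genes without a count are drawn at the left edge. Mgat5b (36) is the highest of the genes without a count, and St6galnac6 (2) is the lowest of the expressed ones.

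The letters GGGCGG, searched on both strands, were present in at least one window of 85.3% of the 34 enzyme genes above 1 CPM and 71.4% of the 21 others, against 71.2% and 30.2% of the protein-coding genes above and not above 1 CPM. CCAAT was present in 47.1% and 23.8% of the enzyme genes, against 43.8% and 40.2%. TATAAA was present in 2.94% and 4.76%, against 7.70% and 21.1%, and CACGTG in 5.88% and 9.52%, against 12.2% and 6.04%. In the printed windows, Mgat2 and Mgat5 hold GGGCGG and Mgat5b does not. A match is not evidence that a factor binds.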

How the data were processed

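The authors deposited raw counts (read pairs assigned to each gene), produced, per the file headers, by featureCounts 1.4.6-p4 on GENCODE M13 exons with strand option 2, from STAR alignments to mm10. The header command sets no option for multiply mapped or multiply assigned pairs. Total RNA-seq is the assay named in the labels, and their linked protocol is for polyadenylated RNA. The other unit used is the exon length deposited with the counts, per the file headers. Gene types and longest coding transcripts came from a later GENCODE release than these exons. For some genes that transcript is longer than the deposited exon length, as for St3gal1 (5732 against 4985 bases).

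Symbols were matched for 50376 of 50600 genes. CPM is counts scaled to the assigned total, and TPM divides by exon length first. CPM differences between genes also reflect length. A level was tested against 1 CPM with limma 3.58.1 (pseudocount 0.1, intercept only, trend), and variability with edgeR 4.0.16 (TMM, filterByExpr). Both call at an adjusted p below 0.05. Both were tested on simulated data. Pairs have no test. DESeq2 1.42.0 was an alternative, with R 4.3.3 and python 3.11.15. Depth was 56904311, 45110199, 127755788 and 53379135 counts, so a count of 0 (limit 3 counts) allowed 0.0527, 0.0665, 0.0235 and 0.0562 CPM.

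Every glycosyltransferase gene may be named. Of the pathway lists, the 3 highest in TPM and those below 1 CPM are named. Genes and lists were chosen with earlier results of these data known.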

Additional observations from a re-analysis of the deposited data

Results flagged for a closer look

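Each of the 43 enzyme genes above 1 CPM and the 10 family sums was examined for 1 library standing apart from the other 3, by the gap to the nearest library over the whole range against Dixon's 95% critical value, which chance alone exceeds in about 1 of 20 such groups. Of 53 quantities 3 met this. B4galt7 had 29.22 TPM in replicate 3, against 25.1 to 25.7 TPM in the others. Mgat4b had 10.29 TPM in replicate 3, against 8.66 to 8.93 TPM. Mgat4a had 6.622 TPM in replicate 1, against 7.44 to 7.58 TPM. Replicate 3 is the deepest library, and the part of depth in these values was not tested.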

How the results depend on the processing

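The counts of enzymes above and below 1 CPM (43 and 15) and of pathway genes above it (67) stayed within a factor of 1.5 under other scalings, pseudocounts, thresholds, TPM, thinning to the shallowest library, edgeR's quasi-likelihood level test and each library left out. The exception was 1 enzyme below 1 CPM after filterByExpr, which removes genes with few counts before the test. Without 1 library, 42 to 43 enzymes lay above and 12 to 15 below, and 41 lay above without B3gnt2 and Galnt2, which share most of their exon bases with other genes. Enzymes called variable numbered 0 under every alternative but the common dispersion, which gave 1. The call held for 54 of 63 enzymes under every alternative in which they were tested. After filterByExpr only 49 were tested. Moving the threshold to 2 CPM put B3gnt5 (1.214 CPM), B4galt2 (1.139), Fut10 (1.23), St3gal6 (1.343) and Galnt2 (1.369) below it, and moving it to 0.5 CPM put Gcnt4 (0.8385) above it. Galnt2 lost its call on the TPM scale and without replicate 2, 3 or 4 (mean 1.31 to 1.41 CPM), and St3gal6 gained one under filterByExpr and the edgeR level test. B3gnt3 (2.358 CPM) and B3gnt9 (1.585) lost their calls at 2 CPM, and St6galnac3 (0.4613) lost its call at 0.5 CPM. B3gnt5, B4galt2, Fut10 and St3gal6 were called above 0.5 CPM. Gcnt4 was called below at 2 CPM and on the TPM scale. Of the pairs, Mgat4a/Mgat4b reversed, to a log2 ratio of 1.902 in CPM and 0.3354 with the longest coding transcript, a length chosen after seeing the data, as were the unshared exon bases. Those alternatives change the length used and no count. Family sums moved beyond their SD with unshared exon bases for the B3gnt genes (67.4 TPM) and the Galnt genes (429 TPM). Ratios to a gene with few or no counts follow the pseudocount, as St6gal1/St6gal2 did at 6.28 with 1 and 12.9 with 0.01. No paired analysis was possible because the labels give 1 group. Depth limits the genes without a count to the stated floors.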

Other observations

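Galnt6 had a coefficient of variation of 0.757%, and 26 of the 2031 genes between 100 and 300 CPM had a lower one (1.28%); the gene was picked after its values were seen. On the same scale of level, 2 enzymes lay above the 90th percentile of all genes of their level, Fut4 (23.1%) and St6galnac3 (65.7%). Fut4 was 1 of 11 enzymes between 3 and 10 CPM, and St6galnac3 was 1 of 2 between 0.3 and 1 CPM. By definition 10% of all genes of a level lie above that percentile, so the count is not read as a result.

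Nanp, at 57 counts in all, was the only gene of nucleotide sugar synthesis below 1 CPM, while Nans before it and Cmas after it in the path to CMP-sialic acid averaged 115 ± 4.83 TPM and 36.1 ± 0.8902 TPM. Its exon overlap with other genes was not examined.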
